A study of Mus musculus with 12 samples.

Results

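Expression of 10 tight junction genes was examined in wounds of the back skin of C57BL/6 mice made diabetic with streptozotocin, a compound that destroys insulin-producing cells. The set holds 9 claudins (Cldn1, Cldn3, Cldn4, Cldn5, Cldn7, Cldn8, Cldn12, Cldn17 and Cldn23) and occludin (Ocln), out of 24062 genes counted. The members were chosen by p value: the set was put together because Cldn17 had one of the smallest p values of the series. By edgeR's quasi-likelihood test Cldn17 ranked 1 of 16267 tested genes by p in pre-MCS-01 against DSCG, 3 in pre-MCS-01 against blank, 26 in post-MCS-01 against DSCG and 123 in post-MCS-01 against blank. Its levels are therefore given as a description, without a test. All 10 genes had counts in all 12 libraries and passed the filter on low counts.

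The 12 libraries came from 12 mice, with 4 treatment labels (blank, DSCG, pre-MCS-01 and post-MCS-01) and 3 mice under each. MCS-01 is a code name for a compound that stabilizes mast cells. DSCG commonly stands for disodium cromoglycate, a drug that keeps mast cells from releasing their granules, and blank served as the control. Strain, wounding and induced diabetes were shared by all groups, and no group of unwounded or non-diabetic skin was analysed here. Age, dose, time and route are not given in the labels, nor is the meaning of pre and post. RNA came from whole wounds, so fewer cells of a type and less RNA per cell cannot be told apart.

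Claudins are small membrane proteins that join neighbouring epithelial or endothelial cells into tight junctions and set which ions pass between the cells. Occludin sits in the same strands, and scaffold proteins such as ZO-1 tie the strands to actin. In skin, tight junctions lie in the granular layer of the epidermis and in the hair follicle, where Cldn1 is needed to keep water in, whereas Cldn5 is the main claudin of blood vessel walls. Cldn3 and Cldn4 are both receptors for a Clostridium enterotoxin, and Cldn17 is known mainly from the kidney as a channel for anions.

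Gene counts totalled 3835042 in blank replicate 3 and between 37702643 and 50461867 in the other 11 libraries, so a count of 3, the floor used here, stood for 0.782 CPM (gene counts scaled to a common library total of 1e+06) in blank replicate 3 and 0.0595 to 0.0796 CPM elsewhere. Floors and intervals cover counting error only. Genes with long exons lay lower than average in 3 libraries, replicate 2 of pre-MCS-01, replicate 2 of DSCG and replicate 3 of blank (Spearman's rho across genes of -0.385, -0.330 and -0.320 with exon length, a description), and the other 9 libraries lay between -0.0561 and 0.337. Markers of the labelled tissue were present throughout: all 10 markers of basal keratinocytes had counts in every library, with summed levels of 12137 to 25178 CPM. Among 14 genes of the hair shaft and root sheath the summed level was 171 to 191 CPM in the post-MCS-01 libraries and 2244 to 43308 CPM in the other 9.

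The genes lie in 2 pairs of neighbours and 6 single positions (GENCODE M21, GRCm38). Cldn17 (chromosome 16, 88505807 to 88506978, minus strand, 1 exon) and Cldn8 (chromosome 16, 88560828 to 88563183, minus strand, 1 exon) are 53.8 kb apart with no annotated gene between them. Cldn3 (chromosome 5, 134986214 to 134987472, plus strand) and Cldn4 (chromosome 5, 134945119 to 134946934, minus strand) are single-exon genes 39.3 kb apart, pointing away from each other with no gene between. The upstream sequences of Cldn17, around which the set was built, and of the neighbours Cldn3 and Cldn4, whose levels are given further on, are shown for the 250 bases before each start (RefSeq, GRCm38.p6, 5′ to 3′ on the strand of the gene). Capitals mark TGANTCA, the site of AP-1 transcription factors, searched on both strands.
Cldn17, chr16:88506979-88507228, minus strand: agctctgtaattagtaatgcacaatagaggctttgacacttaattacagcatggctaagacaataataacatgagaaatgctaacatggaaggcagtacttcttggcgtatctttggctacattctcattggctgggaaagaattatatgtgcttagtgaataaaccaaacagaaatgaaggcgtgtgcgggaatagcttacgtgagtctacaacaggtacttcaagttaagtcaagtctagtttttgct
Cldn3, chr5:134985964-134986213, plus strand: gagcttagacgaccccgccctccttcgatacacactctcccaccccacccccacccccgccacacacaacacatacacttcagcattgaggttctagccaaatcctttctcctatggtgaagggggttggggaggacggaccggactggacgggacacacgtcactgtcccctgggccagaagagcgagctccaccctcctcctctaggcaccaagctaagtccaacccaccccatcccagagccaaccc
Cldn4, chr5:134946935-134947184, minus strand: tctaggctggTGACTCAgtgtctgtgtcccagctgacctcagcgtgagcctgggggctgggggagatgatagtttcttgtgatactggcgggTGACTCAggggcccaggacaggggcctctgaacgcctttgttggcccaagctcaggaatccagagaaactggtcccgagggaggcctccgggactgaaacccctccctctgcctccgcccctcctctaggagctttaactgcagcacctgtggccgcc

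Cldn4 held 2 matches, starting 240 and 158 bases before its start, and none of the other 7 members with a sequence in the table held one. Of 32851 promoters of the same length, 6.75% held at least 1 match and 0.338% at least 2. The Grainyhead site AACCGGTT was in none of the 8 members and in 0.116% of all promoters, and TATAAA was in none of the 8 and in 12.4%. The GC box GGGCGG was in 5 of the 8 (Cldn1, Cldn3, Cldn4, Cldn5 and Ocln) and in 32.7% of all. The Cldn17 window had a GC content of 38.4%, against 60.8% for Cldn3 and 62.0% for Cldn4. A match describes the letters in this window and no more. Cldn8 and Cldn23 were not matched.

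To compare levels between genes, CPM was divided by exon length in kilobases (RPKM). Cldn4 was the most abundant member at 157 ± 68.7 RPKM (SD, n = 12 libraries), followed by Cldn1 at 29.0 ± 7.57 RPKM. The lowest Cldn4 library (64.6 RPKM) lay above the highest Cldn1 library (43.3 RPKM). Cldn5 (18.9 ± 6.68 RPKM), Cldn3 (12.6 ± 11.3 RPKM) and Cldn23 (8.19 ± 3.10 RPKM) came next, with library ranges that overlapped. Cldn12 and Ocln were at 3.68 ± 0.926 and 3.61 ± 1.10 RPKM and did not differ beyond their spread. Cldn8 (1.2 ± 0.878 RPKM), Cldn17 (0.969 ± 0.855 RPKM) and Cldn7 (0.378 ± 0.251 RPKM) were lowest and overlapped as well.

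**Figure D1:**
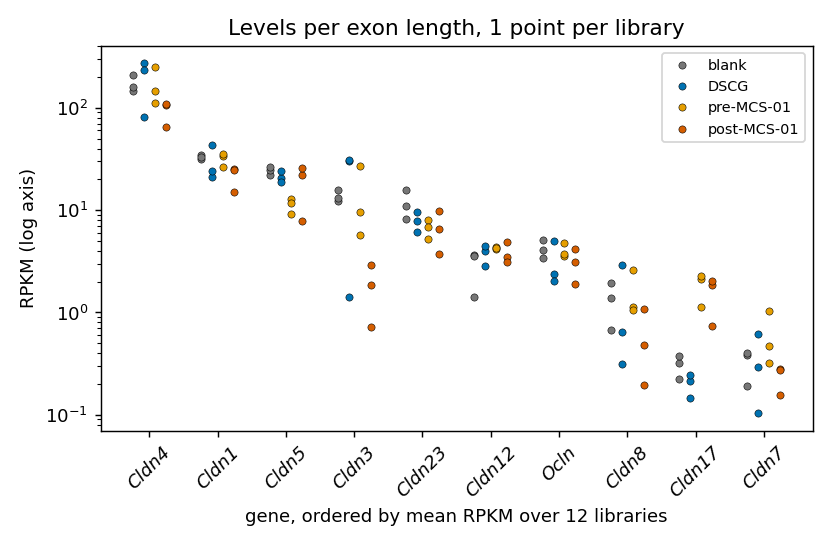
Level of each gene per exon length (RPKM, log axis) in each of the 12 libraries, 1 point per library, coloured by treatment group, with genes ordered by their mean over all libraries. Cldn4 stood above all other members in every library, and its lowest library (64.6 RPKM) lies above the highest of Cldn1 (43.3 RPKM).

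Cldn17 was high in both MCS-01 groups and low in DSCG and blank. In replicates 1, 2 and 3 it stood at 1.32, 2.47 and 2.65 CPM in pre-MCS-01 (53, 87 and 115 counts) and at 2.17, 2.38 and 0.872 CPM in post-MCS-01 (86, 99 and 38 counts). It stood at 0.253, 0.286 and 0.169 CPM in DSCG (10, 13 and 8 counts) and at 0.372, 0.437 and 0.262 CPM in blank (19, 21 and 1 counts). Each of the 6 MCS-01 libraries lay above each of the other 6, with post-MCS-01 replicate 3 the lowest of the 6 and blank replicate 2 the highest of the rest. The order of the means was pre-MCS-01 (2.15 ± 0.722 CPM, SD, n = 3), post-MCS-01 (1.80 ± 0.814), blank (0.357 ± 0.0883) and DSCG (0.236 ± 0.0600). Pre-MCS-01 overlapped with post-MCS-01, and blank overlapped with DSCG.

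**Figure D2:**
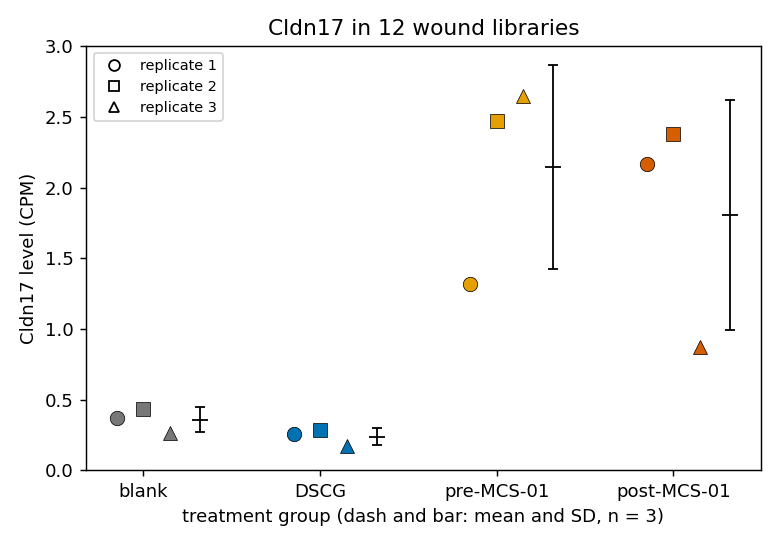
Cldn17 level in CPM for each library of the 4 treatment groups, with the symbol giving the replicate and the dash and bar giving the mean and SD (n = 3). The 6 MCS-01 libraries lie between 0.872 and 2.65 CPM and the other 6 between 0.169 and 0.437 CPM.

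Pre-MCS-01 was 9.00-fold above DSCG (log2 fold change 3.17 ± 0.47, SE) and 5.51-fold above blank (2.46 ± 0.48). Post-MCS-01 was 7.57-fold above DSCG (2.92 ± 0.47) and 4.64-fold above blank (2.21 ± 0.48). These pairs share libraries, and their values are the ones that chose the gene. The single count in blank replicate 3 has an exact 95% Poisson interval of 0.00663 to 1.46 CPM, which reaches into the range of the MCS-01 libraries. Without that library the log2 fold changes against blank were 2.40 for pre-MCS-01 and 2.15 for post-MCS-01.

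Other genes followed nearly the same course. Likeness to Cldn17 was measured as Pearson's r of log2 CPM over the 12 libraries, among 13438 genes with a mean of at least 1 CPM, as a description. The 8 most like it were Il17c (r = 0.93), an interleukin made by epithelia, Il20 (0.93), an interleukin 10 family cytokine of keratinocytes, U90926 (0.92), the epithelial transcription factor Spdef (0.92), the anion exchanger Slc26a4 (0.91), Myc (0.91), the serine protease Prss22 (0.90) and the lipid droplet protein Hilpda (0.89). Il17c averaged 3.86 and 6.49 CPM in pre-MCS-01 and post-MCS-01, against 0.228 in DSCG and 0.416 in blank. Prss22, far more abundant, averaged 83.4 and 106 CPM against 36.6 and 46.5.

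Of the marker sums given here, only that of neutrophils parted the libraries as Cldn17 did. In the MCS-01 libraries that sum was mostly S100a8 and S100a9. The summed level of 7 neutrophil markers was 4107 to 10254 CPM in the 6 MCS-01 libraries and 45.2 to 3750 CPM in the other 6, without overlap, and no marker was at 0 in any library. S100a9, a major part of that sum which wounded keratinocytes also make, was at 2666 to 6747 CPM against 10.5 to 2352 CPM. S100a8 was at 1227 to 3009 CPM against 8.74 to 1225 CPM, so it hardly parted them. The neutrophil receptor genes Csf3r (14.2 to 117 against 5.0 to 38.6 CPM) and Cxcr2 (13.8 to 80.5 against 3.41 to 28.2 CPM) overlapped. The 9 markers of wound-activated keratinocytes, which also hold S100a8 and S100a9, summed to 21096 to 39793 CPM against 8412 to 24528 CPM, with DSCG replicate 2 inside the upper range. Basal keratinocyte markers overlapped (16019 to 25178 against 12137 to 23893 CPM). Their part in the Cldn17 pattern was not tested.

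The neighbour of Cldn17, Cldn8, a claudin of ion-tight epithelia, did not share this pattern. Cldn8 stood at 2.64, 6.16 and 2.49 CPM in pre-MCS-01, at 2.52, 0.456 and 1.12 in post-MCS-01, at 0.735, 1.52 and 6.88 in DSCG and at 4.53, 3.28 and 1.57 in blank. All 4 groups overlapped. Its highest libraries were DSCG replicate 3 and pre-MCS-01 replicate 2. The gene whose course was most like that of Cldn8 was the adhesion molecule Alcam (r = 0.95), followed by Csrp1 and the desmosomal plakophilin Pkp2 (0.92 each).

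Cldn3 was lowest in post-MCS-01 wounds. It stood at 3.65, 0.912 and 2.34 CPM there, at 12.2, 33.6 and 7.18 in pre-MCS-01, at 1.80, 38.3 and 39.2 in DSCG and at 19.9, 15.3 and 16.5 in blank. The 3 post-MCS-01 libraries lay below every pre-MCS-01 and blank library, and DSCG replicate 1 lay inside the post-MCS-01 range while the other 2 DSCG libraries were the highest of the 12. Post-MCS-01 against pre-MCS-01 gave a log2 fold change of -2.94 ± 0.93 (SE, a 7.66-fold lower mean), which did not pass with edgeR (adjusted p = 0.278). By DESeq2 its adjusted p was 0.0190 and by limma-voom 0.489. Without DSCG replicate 1, whose Cldn3 is unlike the rest of its group, the edgeR value was -2.93 (adjusted p = 0.0357). Without pre-MCS-01 replicate 2 it was -2.07 (adjusted p = 0.903), and -2.05 with the 3 libraries low in genes with long exons left out (adjusted p = 0.799). Wbscr25, annotated on the opposite strand at the same place, had at most 0.286 CPM in any library. As the strand setting of the counting is not given, this cannot show whether reads in the overlap were left out as ambiguous.

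Cldn4, the neighbour of Cldn3, followed it at a higher level and with smaller differences. Cldn4 stood at 195, 197 and 117 CPM in post-MCS-01, at 264, 457 and 203 in pre-MCS-01, at 147, 493 and 424 in DSCG and at 263, 287 and 377 in blank. Here too the post-MCS-01 libraries lay below every pre-MCS-01 and blank library, and DSCG replicate 1 lay among them. The highest Cldn4 libraries of pre-MCS-01 (457 CPM), DSCG (493) and blank (377) were those in which genes with long exons lay lower than average. Post-MCS-01 had no such library, and the part of this trend in the Cldn4 levels was not tested. Post-MCS-01 against pre-MCS-01 gave -0.86 ± 0.43 (edgeR, adjusted p = 0.528), and -1.04 to -0.46 with each library left out in turn. Pre-MCS-01 and blank had nearly equal means, 308 ± 133 and 309 ± 60.0 CPM (SD, n = 3 each).

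The libraries with the lowest and the highest hair gene sums were also those with the lowest and the highest Cldn3 and Cldn4. DSCG replicate 1, with the lowest Cldn3 outside post-MCS-01, had the lowest hair gene sum outside post-MCS-01 (2244 CPM). The 3 libraries with the highest Cldn3 and Cldn4, DSCG replicates 2 and 3 and pre-MCS-01 replicate 2, had the 3 highest hair gene sums (36003, 43308 and 33703 CPM). Between these ends the order differed. Blank replicates 2 and 3 had lower hair gene sums (7268 and 8498 CPM) than pre-MCS-01 replicates 1 and 3 (13859 and 13457 CPM), but higher Cldn3 and Cldn4. The hair gene Tchh had r = 0.86 with Cldn3, 0.73 with Cldn4, 0.73 with Cldn1 and 0.70 with Cldn8. Epcam, a basal keratinocyte marker, had 0.88 with Cldn4, but the basal markers Krt5 and Krt14 had 0.37 and -0.15. In post-MCS-01 the hair keratin Krt71 was at 0.0720 to 21.3 CPM, against 710 to 13213 CPM in the other libraries, and 2 of the 14 hair genes were at 0 in post-MCS-01 replicate 2. The genes most like Cldn3 in course were Fam19a5, Otoa and Bmp4 (r = 0.98 each), and those most like Cldn4 were C2cd4b (0.96), the cornified envelope gene Sprr1a (0.96) and Map9 (0.94). The part of hair follicle content in these levels was not tested.

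**Figure D3:**
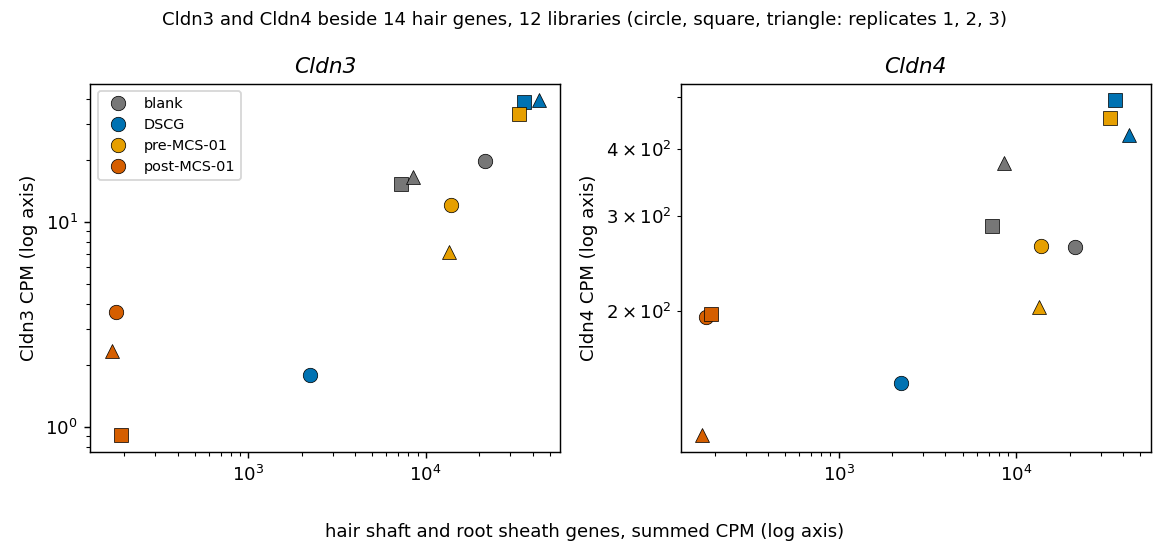
Cldn3 and Cldn4 in CPM (log axes) against the summed CPM of 14 hair shaft and root sheath genes (log axis) in the 12 libraries, coloured by group with the symbol giving the replicate. The post-MCS-01 libraries (171 to 191 CPM of hair genes) and DSCG replicate 1 (2244 CPM) lie at the low end in both panels.

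Cldn1, the claudin that seals the epidermis, varied less. It stood at 121, 120 and 73.4 CPM in post-MCS-01, at 165, 170 and 129 in pre-MCS-01, at 103, 117 and 210 in DSCG and at 152, 166 and 159 in blank. The post-MCS-01 libraries were below every pre-MCS-01 and blank library and overlapped with DSCG. Post-MCS-01 against pre-MCS-01 gave -0.56 ± 0.28 (edgeR, adjusted p = 0.539), a 1.47-fold lower mean. Occludin stood at 13.2, 17.4 and 7.94 CPM in post-MCS-01, at 15.1, 20.3 and 15.9 in pre-MCS-01, at 10.1, 8.50 and 21.0 in DSCG and at 14.4, 21.6 and 17.3 in blank. All groups overlapped for occludin, and its log2 fold change in post-MCS-01 against pre-MCS-01 was -0.41 ± 0.37 (edgeR, adjusted p = 0.710), and -0.63 to -0.13 with each library left out. Cldn1 and Ocln had 2 of their 3 most like genes in common, Bcl7a and the ephrin gene Efna3 (r = 0.95 and 0.92 with Cldn1, 0.86 and 0.91 with Ocln).

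Cldn5, the endothelial claudin, was lowest in pre-MCS-01. It stood at 18.3, 13.0 and 16.8 CPM there, at 29.4, 34.0 and 26.7 in DSCG, at 31.4, 35.0 and 37.7 in blank and at 31.2, 11.2 and 36.4 in post-MCS-01. Pre-MCS-01 lay below every DSCG and blank library, with log2 fold changes of -0.91 ± 0.34 against DSCG and -1.11 ± 0.35 against blank, given here as a description. In post-MCS-01, 2 libraries lay above all of pre-MCS-01 and replicate 2 lay below. That comparison gave 0.71 ± 0.34 (edgeR, adjusted p = 0.512), and without post-MCS-01 replicate 2 it was 1.14.

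Endothelial markers were also lower in pre-MCS-01 by fold change, though single libraries did not all follow Cldn5. Of 10 on the list, which does not hold Cldn5, 10 had a negative log2 fold change in pre-MCS-01 against blank (median -0.56, beside 0.04 over all genes) and 10 in pre-MCS-01 against DSCG (median -0.53, beside 0.03). Pre-MCS-01 lay wholly below blank in 1 of the 10 (5.96% of all genes) and wholly below DSCG in 2 (2.59% of all genes). All 10 had counts in every library, and they summed to 150 to 423 CPM in pre-MCS-01, 327 to 541 in DSCG, 253 to 532 in blank and 285 to 535 in post-MCS-01, so the sums overlapped. Pre-MCS-01 replicate 2 was low in both Cldn5 (13.0 CPM) and the endothelial sum (150 CPM). Blank replicate 3 had the highest Cldn5 (37.7 CPM) with a sum of 253 CPM. Pre-MCS-01 replicate 3 had 16.8 CPM of Cldn5 with a sum of 423 CPM. Over the 12 libraries Pearson's r of Cldn5 was 0.53 with Pecam1, 0.36 with Cdh5 and 0.41 with Kdr. Lower levels were not particular to endothelium. In pre-MCS-01 against blank, fibroblast (8 of 8), sebaceous gland (10 of 10), skeletal muscle (7 of 8) and macrophage markers (5 of 6) were mostly negative too. Their medians were -0.51, -0.66, -0.61 and -0.65, and against DSCG -0.16, -0.23, -0.50 and -0.56. Neutrophil (7 of 7), hair (12 of 14), wound-activated (7 of 9) and suprabasal markers (7 of 12) were mostly positive against blank, and basal ones mixed (6 of 10 negative). The part of endothelial content in the Cldn5 levels was not tested. The genes most like Cldn5 in course were the sterol receptor Nr1h3 (r = 0.97), Hoxd9 (0.94) and Adamtsl2 (0.94).

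Cldn7, which is known from basolateral membranes of epithelia, was near the limit of these data. It stood at 0.920, 2.02 and 0.621 CPM in pre-MCS-01, at 0.302, 0.552 and 0.528 in post-MCS-01, at 0.203, 1.21 and 0.572 in DSCG and at 0.745, 0.374 and 0.786 in blank. Every pre-MCS-01 library lay above every post-MCS-01 library (log2 fold change of post-MCS-01 against pre-MCS-01 -1.35 ± 0.63, edgeR, adjusted p = 0.496). Without pre-MCS-01 replicate 2 that value was -0.73. The value in blank replicate 3 rests on 3 counts. As for Cldn4, the highest libraries of pre-MCS-01, DSCG and blank were those in which genes with long exons lay lower than average.

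Cldn12, a claudin without the usual scaffold-binding end, lay between 6.03 and 20.8 CPM over all 12 libraries. It stood at 17.7, 18.6 and 17.9 CPM in pre-MCS-01, at 14.6, 20.8 and 13.1 in post-MCS-01, at 12.0, 16.7 and 18.7 in DSCG and at 15.5, 15 and 6.03 in blank. The lowest value was in blank replicate 3. The difference of pre-MCS-01 from blank was 0.53 ± 0.32 on the log2 scale, and 0.24 without that library.

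Cldn23, a claudin of differentiated epithelia, was highest in blank. It stood at 15.1, 20.4 and 28.8 CPM there, at 14.7, 12.5 and 9.57 in pre-MCS-01, at 12.0, 18.1 and 6.82 in post-MCS-01 and at 14.4, 11.4 and 17.7 in DSCG. Only pre-MCS-01 lay wholly below blank (log2 fold change -0.79 ± 0.36), and without blank replicate 3 the value was -0.54. DSCG against blank gave -0.55 ± 0.36 (edgeR, adjusted p = 0.999).

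**Figure D4:**
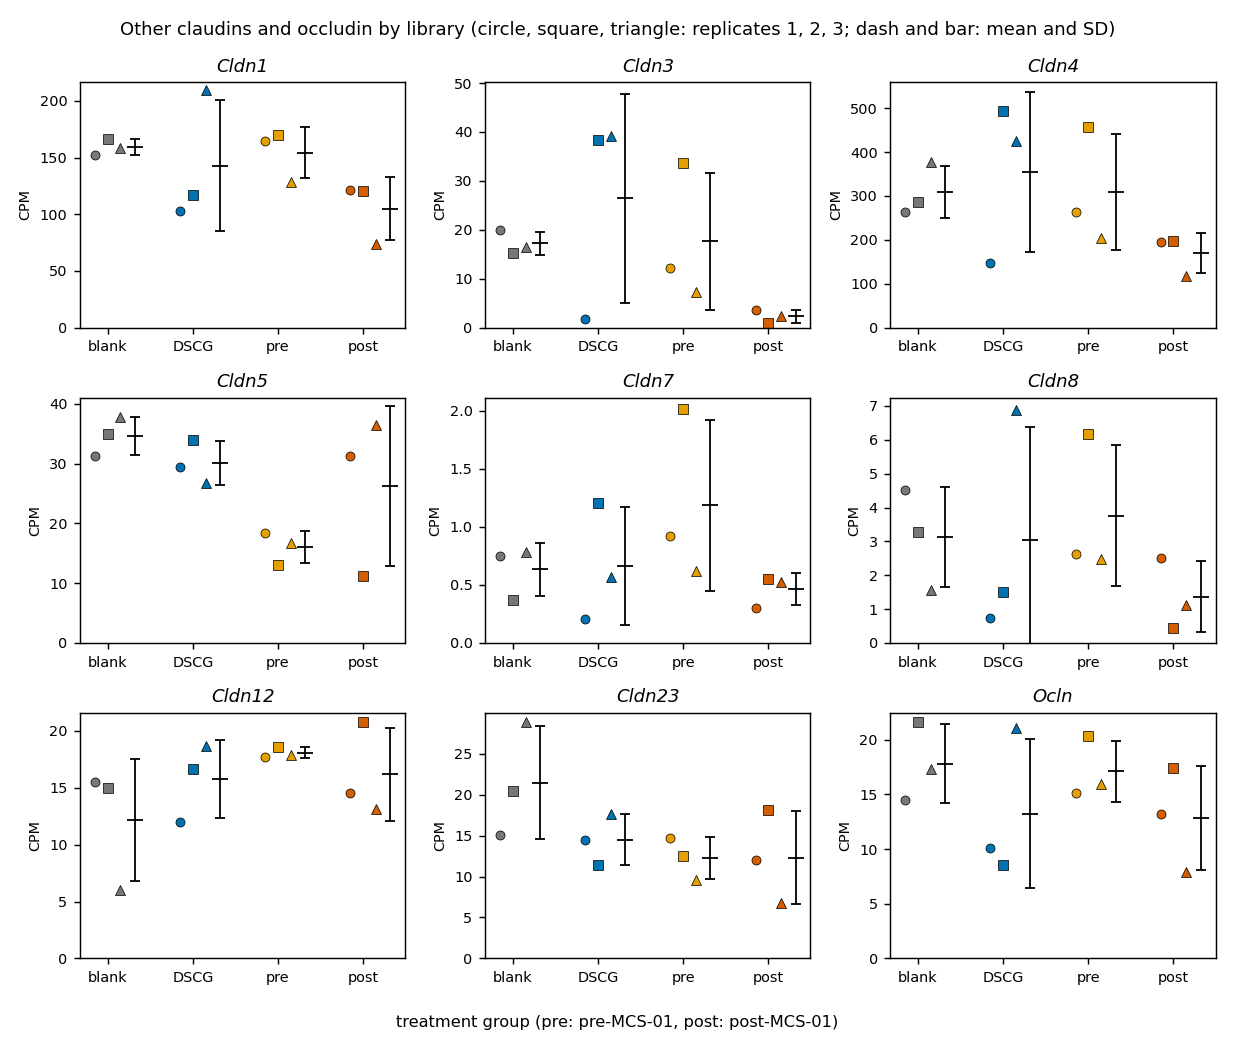
CPM of the other 9 members in each library, by treatment group, with the symbol giving the replicate and the dash and bar the mean and SD (n = 3; the bar of Cldn8 in DSCG is cut at 0). Cldn3 and Cldn4 are low in the 3 post-MCS-01 libraries and DSCG replicate 1, and Cldn5 is low in the 3 pre-MCS-01 libraries and post-MCS-01 replicate 2.

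Across the other 9 members, 2 comparisons are free of the values that chose Cldn17. In post-MCS-01 against pre-MCS-01, 0 of the 9 passed with edgeR (adjusted p 0.278 to 0.998), where 0.824% of all genes did (0.0184% higher and 0.805% lower). At an unadjusted p under 0.05 there was 1 (Cldn3), with 10.2% of all genes, DESeq2 called 1 (Cldn3) and limma-voom 0. The log2 fold change was negative in 7 of the 9 and positive in 2 (Cldn5 and Cldn23), with a median of -0.56 beside -0.03 over all genes. The groups did not overlap in 4 of the 9 (Cldn1, Cldn3, Cldn4 and Cldn7), each lower in post-MCS-01, and in 10.7% of all genes in that direction and 7.01% in the other. In DSCG against blank, 0 of the 9 passed with edgeR (adjusted p = 0.999 each), 0 at an unadjusted p under 0.05 (1.03% of all genes), and 0 with DESeq2 or limma-voom. There 0% of all genes passed, the median was -0.11 beside -0.0016 over all genes, and none of the 9 were without overlap, against 3.68% of all genes (1.91% higher in DSCG and 1.77% lower).

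**Figure D5:**
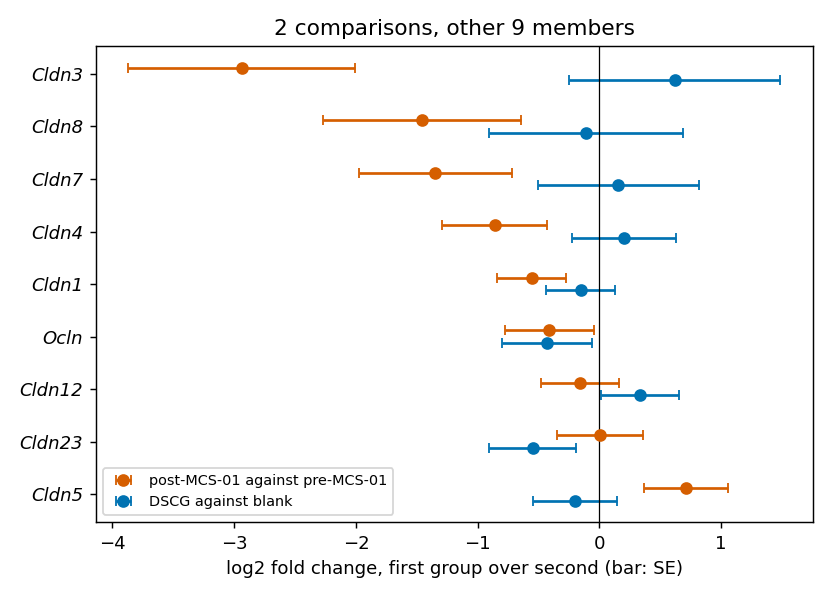
Log2 fold change with its SE for the other 9 members in post-MCS-01 against pre-MCS-01 and in DSCG against blank, with 0 marking equal levels. Cldn3 has the lowest value in the former (-2.94), and in the latter all values lie between -0.55 and 0.62.

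In the remaining 4 pairs the values stand beside those that chose Cldn17 and are given without a reading. With edgeR 0 of the 9 passed in each. The share of all genes that passed was 0% in pre-MCS-01 against blank, in post-MCS-01 against blank and in pre-MCS-01 against DSCG, and 1.06% in post-MCS-01 against DSCG (0.141% higher and 0.916% lower). At an unadjusted p under 0.05 there were 2 in pre-MCS-01 against blank (Cldn5 and Cldn23, 7.24% of all genes) and 2 in post-MCS-01 against blank (Cldn3 and Cldn23, 9.35%). There was 1 in pre-MCS-01 against DSCG (Cldn5, 2.36%), and there were 2 in post-MCS-01 against DSCG (Cldn3 and Cldn4, 11.3%). DESeq2 called Cldn3 in both comparisons of post-MCS-01 here and no other of the 9, and limma-voom called 0. Groups did not overlap in 3 members for pre-MCS-01 against blank, Cldn12 higher and Cldn5 and Cldn23 lower, beside 14.4% of all genes (8.41% higher and 5.96% lower). For post-MCS-01 against blank they did not overlap in Cldn1, Cldn3 and Cldn4, all lower, beside 18.4% of all genes (8.92% higher and 9.45% lower). For pre-MCS-01 against DSCG the 1 was Cldn5, lower, beside 5.12% (2.53% higher and 2.59% lower). For post-MCS-01 against DSCG there was none among the 9, beside 15.4% (7.14% higher and 8.28% lower). Cldn3 had log2 fold changes of -2.91 ± 0.94 against blank and -3.52 ± 0.95 against DSCG in post-MCS-01. For pre-MCS-01 the same values were 0.031 ± 0.86 and -0.59 ± 0.86.

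The other claudins were read from a list of 21, of which 16 were in the count files and 8 were tested. Cldn14, a claudin known from the inner ear and kidney, was nearly absent from post-MCS-01 wounds. It had 3 counts over that group, at 0 to 0.0504 CPM, and 3.64 to 13.3 CPM in pre-MCS-01, 0.861 to 16.0 in DSCG and 1.54 to 4.37 in blank. In pooled counts pre-MCS-01 was higher than post-MCS-01 by a ratio of 276 (exact 95% counting interval 94.1 to 1342). That interval leaves out the spread between mice. With edgeR Cldn14 passed in post-MCS-01 against pre-MCS-01 (log2 fold change -8.00 ± 1.30, adjusted p = 0.0313), lower in each of 3 post-MCS-01 libraries than in any pre-MCS-01 library. It was the 1 of the 8 to pass there (0.824% of all genes), with 4 at an unadjusted p under 0.05 (10.2% of all genes). In the 3 pairs without post-MCS-01, 0 of the 8 passed with edgeR, DESeq2 or limma-voom, and 2, 2 and 0 were at an unadjusted p under 0.05 (pre-MCS-01 against blank, pre-MCS-01 against DSCG and DSCG against blank). In those pairs 0% of all genes passed with edgeR, and 7.24%, 2.36% and 1.03% were at an unadjusted p under 0.05. In post-MCS-01 against DSCG, which shares the post-MCS-01 libraries, Cldn14 was again the 1 of the 8 to pass with edgeR (log2 fold change -8.30 ± 1.30, adjusted p = 0.0300), with 3 at an unadjusted p under 0.05, 1 with DESeq2 and 0 with limma-voom. Of all genes 1.06% passed there with edgeR and 11.3% were at an unadjusted p under 0.05. In post-MCS-01 against blank 0 passed with edgeR (0% of all genes), 1 at an unadjusted p under 0.05 (9.35% of all genes), 1 with DESeq2 and 0 with limma-voom.

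The call of Cldn14 in post-MCS-01 against pre-MCS-01 was lost without single libraries. Its adjusted p (edgeR) was 0.0682 without pre-MCS-01 replicate 2, 0.0513 without DSCG replicate 3, 0.0626 without blank replicate 3, and 0.141, 0.141 and 0.230 without post-MCS-01 replicates 1, 2 and 3. It was 0.199 with limma-voom, 0.257 when the 3 libraries low in genes with long exons were left out and 1.19e-09 with DESeq2. Over all these the log2 fold change stayed between -8.83 and -7.13. The hair gene sum of the post-MCS-01 libraries, given above, was also far below that of the rest, and its part in Cldn14 was not tested.

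Among 23 tested genes of adherens junctions and desmosomes, which hold epithelial cells together mechanically, post-MCS-01 against pre-MCS-01 gave 0 higher and 1 lower (0.0184% and 0.805% of all genes). The 1 was Dsg4, a desmoglein of the hair shaft, at 0.143 ± 0.0676 against 18.1 ± 5.76 CPM (SD, n = 3 each, log2 fold change -6.95 ± 1.15, edgeR, adjusted p = 0.0316). The call was lost without pre-MCS-01 replicates 2 or 3 (adjusted p = 0.0682 and 0.0520), blank replicates 2 or 3 (0.0508 and 0.0626) or any post-MCS-01 library (0.141, 0.141 and 0.230). It was also lost with limma-voom (0.199) and with the 3 libraries low in genes with long exons left out (0.257). With DESeq2 it was kept (adjusted p = 1.97e-12). The hair gene sum was 171 to 191 CPM in post-MCS-01 against 2244 to 43308 CPM in the rest, and its part in Dsg4 was not tested. In post-MCS-01 against DSCG, Dsg4 was again the 1 to pass with edgeR (-6.68 ± 1.14, adjusted p = 0.0323), with 2 at an unadjusted p under 0.05, 1 with DESeq2 and 0 with limma-voom. The shares of all genes there were 1.06% passing with edgeR and 11.3% at an unadjusted p under 0.05. In DSCG against blank 0 of the 23 passed with edgeR (0% of all genes), with 1 at an unadjusted p under 0.05 (1.03% of all genes) and 0 with DESeq2 or limma-voom.

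No call was made among the scaffold proteins and other membrane proteins listed for the junction. Of 25 tested scaffold, JAM, angulin and MARVEL genes, 0 passed in any of the 6 pairs with edgeR, DESeq2 or limma-voom, and between 0 and 2 were at an unadjusted p under 0.05. Few genes of any kind passed: over all genes the edgeR share was 0% to 1.06% by pair. At an unadjusted p under 0.05 the share of all genes was 1.03% to 11.3%. Their median log2 fold change in post-MCS-01 against pre-MCS-01 was -0.14. Ybx3, a nucleic acid-binding protein that docks at ZO-1, was the most abundant at 972 ± 122 CPM (SD, n = 12). Of 22 tested proteases, protease inhibitors and transcription factors of the junction, 0 passed with edgeR in any pair, and between 0 and 5 were at an unadjusted p under 0.05, beside the same shares of all genes. DESeq2 called 1 in post-MCS-01 against blank and 2 in post-MCS-01 against DSCG, and limma-voom called 0. The most abundant were Klf4, a transcription factor of the skin barrier (692 ± 152 CPM), and Spint2, an inhibitor of membrane-bound proteases (363 ± 115 CPM).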

How the data were processed

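RNA of 12 wounds was sequenced, 1 library per mouse, and the deposited files give raw read counts per gene for each library. The submitters' processing notes name FastQC, TopHat2, Bowtie2, HTSeq, limma and the mm10 build, without versions. The strand setting of the counting is not given in the sources used here. Reads not aligned uniquely were 17.3% to 23.4% of the gene counts and summary lines, reads in no gene 4.34% to 6.81%, and ambiguous reads 0.956% to 1.34%. The 5 summary lines were left out of library sizes and tests.

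Counts were fitted with edgeR 4.0.16 (R 4.3.3) in 1 model of all 12 libraries and 4 groups, with filterByExpr, TMM scaling and the quasi-likelihood test for 6 pairs of groups. The Benjamini-Hochberg adjustment covered 16267 genes, at a threshold of 0.05. CPM uses TMM-scaled totals, and RPKM also the exon length in GENCODE M21. The code was tested on simulated counts. Alternatives were RLE scaling, no filter, DESeq2 1.42.0, limma-voom (limma 3.58.1), leaving out the 3 libraries low in genes with long exons, and leaving out each library in turn.

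The members and gene lists were chosen with earlier results of these data known. Tests of the members in the 4 pairs where Cldn17 had a small p are treated as description, although they were planned as tests. Named genes were all members, the 8 genes most like Cldn17 and the 3 most like each other member (predicted genes left out), and, from each junction list, up to 4 genes that passed in a comparison or, where none did, the 2 most abundant. The single marker genes Csf3r, Cxcr2, Krt71, S100a8 and S100a9 were picked after their values were seen. A further gene that this rule names is not reported here.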

Additional observations from a re-analysis of the deposited data

How the results depend on the processing

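Of the log2 fold changes of members and named genes under all alternatives, 969 kept their direction and side of the threshold, 51 changed sign, 25 lost a call and 9 gained one. Among these fold changes the main fit called only Cldn17 in post-MCS-01 against DSCG and Cldn14 and Dsg4 in post-MCS-01 against pre-MCS-01. All 25 losses belong to these calls, and nearly all of the 969 were not called in the main fit either. Counts of members called include Cldn17, whose p values chose the set, and are given as a description. With DESeq2 the count was 1 in pre-MCS-01 against blank, 2 in post-MCS-01 against blank, 1 in post-MCS-01 against pre-MCS-01, 1 in pre-MCS-01 against DSCG and 2 in post-MCS-01 against DSCG. In post-MCS-01 against DSCG it was 0 with limma-voom and 0 with the 3 libraries low in genes with long exons left out. Leaving out each library in turn gave 0 to 1 members in post-MCS-01 against blank, 0 to 1 in post-MCS-01 against pre-MCS-01 and 0 to 2 in post-MCS-01 against DSCG. Over all genes, post-MCS-01 against pre-MCS-01 gave 134 calls, 428 with DESeq2, 1 with limma-voom, 0 without the 3 libraries and 0 to 254 with each library left out. Post-MCS-01 against DSCG gave 172, 620, 2, 0 and 0 to 606. Post-MCS-01 against blank gave 0, 37 without the filter, 406 with DESeq2 and 0 to 222 with each library left out. DESeq2 called 68 in pre-MCS-01 against blank and 17 in pre-MCS-01 against DSCG, where edgeR called 0. Signs changed as follows, and the cause was not tested. In pre-MCS-01 against blank, Cldn3 was -0.015 without the filter, -0.30 with limma-voom and -0.88 without the 3 libraries, and Cldn8 -0.018 with limma-voom and -0.62 without the 3. In DSCG against blank, Cldn3 was -0.26 and Cldn7 -0.11 with limma-voom, and Cldn7 -0.51 without the 3. Cldn23 was -0.083 with limma-voom in post-MCS-01 against pre-MCS-01. Without the 3, pre-MCS-01 against DSCG gave -0.11 for Cldn1, -0.59 for Cldn8 and -0.026 for Ocln, and post-MCS-01 against DSCG gave 0.24 for Cldn7. With each library left out, signs also changed within these ranges. In pre-MCS-01 against blank they were -0.12 to 0.031 for Cldn1, -0.83 to 0.36 for Cldn3, -0.40 to 0.18 for Cldn4, -0.37 to 0.49 for Cldn8 and -0.24 to 0.073 for Ocln. In DSCG against blank they were -0.53 to 0.037 for Cldn1, -0.11 to 0.57 for Cldn4, -0.60 to 0.58 for Cldn7 and -1.55 to 0.34 for Cldn8. In post-MCS-01 against pre-MCS-01 they were -0.32 to 0.32 for Cldn23 and -0.50 to 0.11 for Cldn17. In pre-MCS-01 against DSCG they were -0.079 to 0.45 for Cldn1, -0.60 to 0.11 for Cldn4 and -0.25 to 1.69 for Cldn8. In post-MCS-01 against DSCG they were -0.15 to 0.18 for Cldn12, -0.94 to 0.24 for Cldn7, -1.90 to 0.29 for Cldn8, -0.29 to 0.46 for Ocln, -0.49 to 0.20 for Cldn5 and -0.59 to 0.052 for Cldn23. No paired analysis was possible because the labels number every mouse differently, and the replicate numbers used here follow the order of the records and tie no mice together. Depth limits Cldn17 and Cldn7 most, above all in blank replicate 3.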
